A study of Mus musculus with 15 samples.

Results

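Cd34 and Kcnq1ot1 are 2 of the 754 genes counted in mouse bone marrow-derived macrophages (BMDMs) with a NanoString nCounter panel of myeloid genes. Barcoded probe pairs capture the target RNAs in this assay, and barcodes are counted without amplification. The 2 genes were chosen by their difference between macrophages given nanoparticles with IRF5 mRNA and those given control nanoparticles with eGFP mRNA, where they ranked 1 and 3 of all genes by unadjusted p. That contrast is therefore described here and not tested, and the same holds for the other contrasts that use nanoparticle libraries. The 15 libraries formed 4 groups, all of BMDMs grown in M-CSF. The M1-like standards (MPLA, n = 4) were kept for 4 days in 20 ng/mL monophosphoryl lipid A, a Toll-like receptor 4 agonist. The M2-like standards (IL4, n = 4) were kept for 4 days in 20 ng/mL IL-4. The remaining libraries came from IL4-exposed BMDMs incubated for 1 h with 1 µg of IRF5 nanoparticles (IRF5-NP, 3 libraries numbered 1, 2 and 4) or of eGFP nanoparticles (eGFP-NP, 4 libraries). The 1 µg is the amount in the labels, and the methods give a different amount, as mRNA. According to the methods, the IRF5 cargo also held mRNA of the kinase IKKβ and some eGFP mRNA as reporter. Both nanoparticle groups were further sorted for bright eGFP and put back into IL-4 before lysis, steps that the standards did not undergo. The study calls its samples biologically independent and names a larger number of them than the libraries held here per group, while the labels do not say whether replicates were separate mice or separate wells. P-values measure the spread between these libraries, part of which may be technical.

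CD34 is a heavily glycosylated transmembrane sialomucin. It marks haematopoietic stem and progenitor cells, endothelium, mast cells and some tissue fibroblasts, and it can carry glycans that bind selectins. Mature macrophages are usually regarded as CD34-negative. Kcnq1ot1 is a long non-coding RNA (lncRNA) transcribed from the paternal chromosome in antisense direction to Kcnq1. It is known for silencing neighbouring imprinted genes, such as Phlda2 and Cdkn1c, on that chromosome through repressive chromatin. It was the 1 row of the 754 that RefSeq annotates as an lncRNA, so the panel holds no other transcript of its class to set beside it.

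The 2 loci lie on different chromosomes. In RefSeq annotation of GRCm38.p6, Cd34 is a protein-coding gene at chr1:194938821-194961292 and Kcnq1ot1 an lncRNA at chr7:143213111-143296547. To show the sequence context of the 2 genes, the 250 bases before each annotated start are shown, 5′ to 3′ on the strand of the gene (Cd34 plus strand, chr1:194938571-194938820, and Kcnq1ot1 minus strand, chr7:143296548-143296797). Capitals mark matches, on either strand, to 4 short motifs: CCAAT (bound by NF-Y), GAAANNGAA (part of the interferon-stimulated response element bound by IRF factors), TTCNNNGAA (bound by STAT factors) and GGGCGG (bound by Sp1).
Cd34: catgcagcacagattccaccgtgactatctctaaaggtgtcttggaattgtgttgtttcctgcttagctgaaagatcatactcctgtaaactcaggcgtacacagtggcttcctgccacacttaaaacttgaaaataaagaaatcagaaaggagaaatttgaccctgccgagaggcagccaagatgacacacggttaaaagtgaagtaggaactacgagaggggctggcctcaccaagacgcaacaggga
Kcnq1ot1: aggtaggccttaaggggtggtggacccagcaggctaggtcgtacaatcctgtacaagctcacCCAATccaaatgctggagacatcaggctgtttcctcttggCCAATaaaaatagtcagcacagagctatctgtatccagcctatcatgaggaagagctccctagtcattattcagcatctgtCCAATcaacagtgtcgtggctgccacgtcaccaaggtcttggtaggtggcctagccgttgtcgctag
The Kcnq1ot1 window held 3 CCAAT matches, and 2.79% of 32851 RefSeq promoter windows of this length held at least 3. No motif overlapped another. The Cd34 window held none of the 4 motifs, and neither window held the IRF or STAT letters, which occurred in 7.13% and 7.02% of windows. The windows contained 6 (Cd34) and 5 (Kcnq1ot1) CpG dinucleotides. These are letter matches and no binding was measured.

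Sequencing depth has its counterpart here in the total gene count, which ranged from 266169 (IRF5-NP 4) to 1784833 (MPLA 1). Background was set per library at 2 SD over the mean of its 8 negative control probes, which gave 19.7 to 34.9 counts. The eGFP-NP libraries 1 and 2 differed by no more than sampling noise (chi-square per degree of freedom 1.09) and were summed to 1 sample. The eGFP-NP group thus had n = 3 in the main fits and in means. A further 4 pairs within groups (libraries 1 with 4 and 2 with 3 of MPLA, 1 with 2 of IRF5-NP, 3 with 4 of eGFP-NP) were nearly identical (at most 2.56, against at least 41.4 in the other pairs within groups). The labels do not tie these pairs to shared or separate cultures. Of 12 macrophage markers, 9 were above background in every library, among them Csf1r, Cd68 and Adgre1. Detection does not show what share of the RNA came from macrophages, and fibroblast genes are given below. Cd163 and Mertk were so in some libraries and Aif1 in none.

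Cd34 was abundant in every MPLA and eGFP-NP library, lower in every IRF5-NP library and widely scattered in IL4. MPLA libraries 1 to 4 had 879, 858, 912 and 829 counts. IL4 libraries 1 to 4 had 223, 147, 34 and 1238 counts, so that IL4 3 lay below its background level of 34.9 while IL4 4 had the highest count of the series. IRF5-NP 1, 2 and 4 had 217, 200 and 68 counts, all above background, and eGFP-NP 1 to 4 had 1050, 1092, 779 and 693 counts. The last IRF5-NP library had by far the lowest total, and scaling brought the 3 together. As log2 CPM (log2 of counts scaled to library size by TMM, prior count 2), Cd34 was 7.59, 7.54 and 7.22 in IRF5-NP and 9.90, 9.58 and 9.65 in eGFP-NP 1-2, 3 and 4. Group levels in log2 CPM were, from high to low, 9.71 ± 0.17 (SD, n = 3) in eGFP-NP, 8.87 ± 0.08 (SD, n = 4) in MPLA, 7.45 ± 0.20 (SD, n = 3) in IRF5-NP and 7.26 ± 1.87 (SD, n = 4) in IL4. The IRF5-NP range lay below that of eGFP-NP, as for 6.76% of all genes. The MPLA range lay between them, and the share of all genes with that order was not counted. The IL4 libraries spanned 5.08 to 9.57 log2 CPM and overlapped both MPLA and IRF5-NP.

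Kcnq1ot1 was higher in every eGFP-NP and MPLA library than in any IL4 or IRF5-NP library. MPLA libraries 1 to 4 had 136, 142, 162 and 137 counts. IL4 libraries 1 to 4 had 31, 30, 25 and 58 counts, of which that of IL4 3 was below background. IRF5-NP 1, 2 and 4 had 35, 27 and 19 counts, with 1 of 3 above background, and eGFP-NP 1 to 4 had 148, 166, 125 and 104 counts. The transcript was thus clearly measured in MPLA and eGFP-NP and near or under the limit of the assay in IL4 and IRF5-NP. Group levels were 7.01 ± 0.12 (SD, n = 3) log2 CPM in eGFP-NP, 6.30 ± 0.13 (SD, n = 4) in MPLA, 5.05 ± 0.35 (SD, n = 3) in IRF5-NP and 4.81 ± 0.30 (SD, n = 4) in IL4. The eGFP-NP range lay above that of MPLA, and MPLA above IRF5-NP, whereas IRF5-NP and IL4 overlapped. The share of all genes with that order was not counted. The highest IRF5-NP value, 5.42 log2 CPM in library 4, came from 19 counts against a background of 32.4, so it is no measured level.

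**Figure D1:**
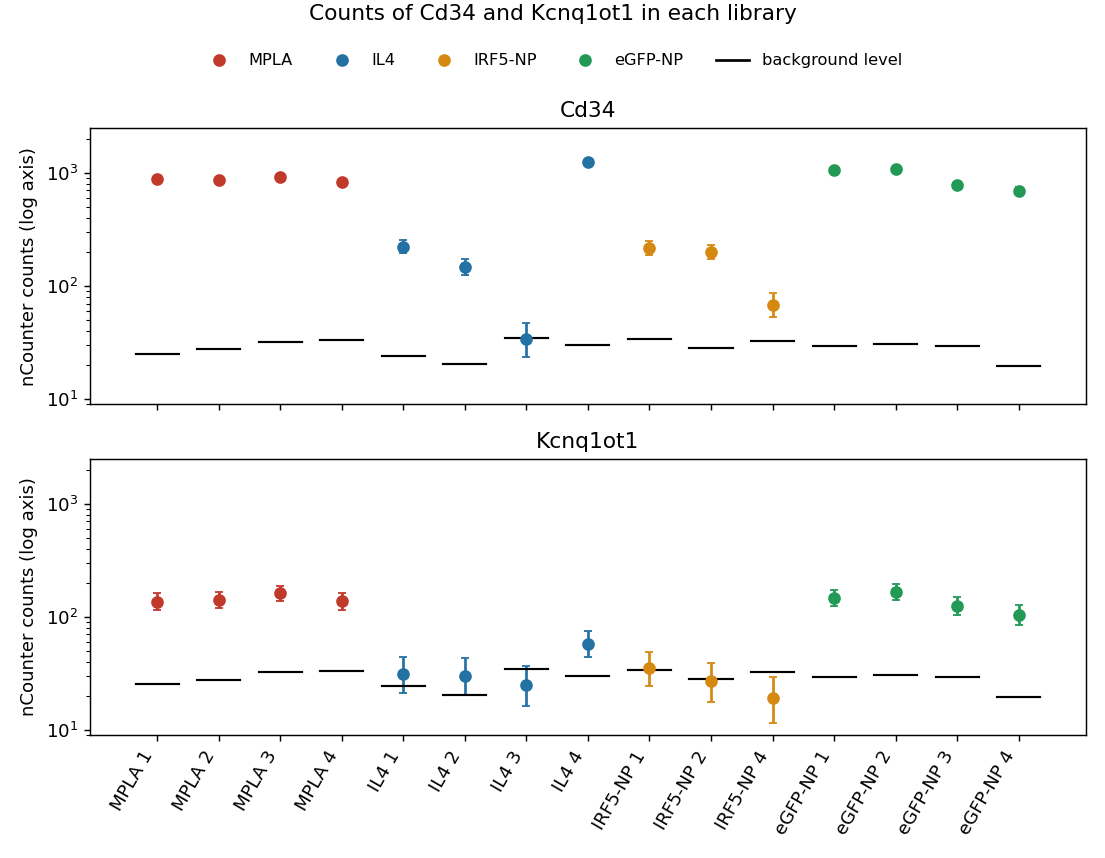
Counts (log axis) of Cd34 (top) and Kcnq1ot1 (bottom) in the 15 libraries, coloured by group, with exact Poisson 95% intervals that cover counting error only; black bars mark the background level of each library. The 4 eGFP-NP libraries lay at 693 to 1092 counts for Cd34 and 104 to 166 for Kcnq1ot1, against 68 to 217 and 19 to 35 in the 3 IRF5-NP libraries.

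To ask whether the 2 genes separate the M1-like from the M2-like standards, MPLA was tested against IL4, a contrast without nanoparticle libraries. The mean of fibroblast genes, given below, was also higher in every MPLA library than in any IL4 library. The genes were picked with earlier results of these data known, so the test is not independent of that choice. Kcnq1ot1 rose in MPLA, whereas Cd34 did not pass the test. The log2 difference of Kcnq1ot1 was 1.53 ± 0.24 (SE), a 2.89-fold higher level, with an adjusted p of 0.00331 by edgeR's quasi-likelihood test over all 754 genes. All 4 MPLA libraries lay above all 4 IL4 libraries (exact permutation p = 0.0286, two-sided, the smallest that 70 splits can give). In this contrast 26.4% of all genes were called and 12.2% of all genes were called higher in MPLA, and 22.1% had MPLA libraries all above IL4 libraries, so the call placed Kcnq1ot1 among many genes. The balance of calls moved with the scaling, from 92 higher and 107 lower to 45 and 123 under housekeeping genes and 96 and 63 under total counts. IL4 counts were close to background, and with the mean negative control subtracted the difference was 2.19 (adjusted p = 0.00982 by edgeR). Summing the nearly identical MPLA pairs, which left 2 MPLA samples, kept the difference at 1.53 but ended the call (adjusted p = 0.0722 by edgeR). Cd34 differed by 0.77 ± 0.80 (SE, adjusted p = 0.513 by edgeR) in the fit. Its means of log2 CPM differed by 1.62 (exact permutation p = 0.143). The fitted difference rested on IL4 4, without which it was 2.07 and passed (adjusted p = 0.0340 by edgeR). It was 1.40 by limma on housekeeping-scaled log2 values (adjusted p = 0.204) and -0.72 with the fibroblast mean as a covariate (adjusted p = 0.749 by edgeR).

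The nanoparticle cargo was compared at the same replicate number, where the deviations of IRF5-NP and eGFP-NP libraries from their group means correlated across genes at 0.818 to 0.823. Libraries of unlike number were not compared in this way, so the correlations cannot show that the numbers pair. For number 1, Cd34 had 217 counts in IRF5-NP and 1050 in eGFP-NP, a TMM-scaled ratio of 4.94 (95% counting interval 4.27 to 5.75). For number 2 it had 200 and 1092 counts, a ratio of 5.17 (4.44 to 6.04), and for number 4 it had 68 and 693 counts, a ratio of 5.42 (4.22 to 7.06). The 3 ratios lay within each other's counting intervals, although library 4 of IRF5-NP had a fraction of the total of the others. For Kcnq1ot1 the ratio was 4.32 (2.97 to 6.44) at number 1, from 35 and 148 counts. At numbers 2 and 4 the IRF5-NP counts of 27 and 19 were below background, and eGFP-NP was at least 5.54-fold and at least 1.71-fold above the background level of its partner. Both genes were lower in IRF5-NP at each number, but numbers 1 and 2 are not distinct pairs, since eGFP-NP 1 and 2 count as 1 sample and IRF5-NP 1 and 2 were nearly identical.

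**Figure D2:**
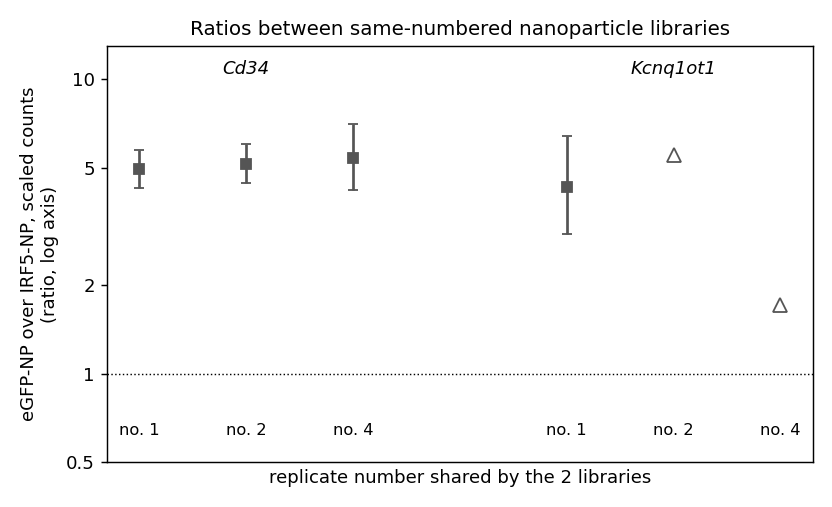
Ratio (log axis) of scaled counts in eGFP-NP over IRF5-NP for the 3 replicate numbers that both groups hold, with exact 95% counting intervals; open triangles mark lower bounds, drawn without an interval, where the IRF5-NP count was below background and the background level took its place, and the dotted line marks equal levels. Cd34 ratios were 4.94, 5.17 and 5.42, and Kcnq1ot1 was 4.32, at least 5.54 and at least 1.71.

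Fitted over all nanoparticle libraries, the log2 difference of IRF5-NP from eGFP-NP was -2.24 ± 0.24 (SE) for Cd34 and -1.92 ± 0.37 for Kcnq1ot1 (n = 3 and 3). Blocking on the replicate number gave -2.43 and -2.14. The Kcnq1ot1 value is not a measured size, since 2 of 3 IRF5-NP counts were below background, and it was -3.67 with background subtracted. The size for Cd34 exceeded that of 98.8% of all genes, as a gene chosen on this contrast would. All IRF5-NP libraries lay below all eGFP-NP libraries for both genes, as they did for 6.76% of all genes. edgeR called 0% of genes in this contrast, with 42 at an unadjusted p under 0.05, and DESeq2 called 6.

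Both nanoparticle groups were also set against the IL4 standard. The log2 difference of eGFP-NP from IL4 was 2.09 ± 0.34 (SE) for Kcnq1ot1 and 1.45 ± 0.93 for Cd34 (n = 3 and 4). Kcnq1ot1 was 2.86 with background subtracted, and Cd34 was 2.79 without IL4 4. Cd34 was 2.43 with the replicate block, although numbers were not taken as pairs with IL4. All eGFP-NP libraries lay above all IL4 libraries for both genes, as for 5.04% of all genes, although for Cd34 the gap was 0.01 log2 CPM between eGFP-NP 3 (9.58) and IL4 4 (9.57). IRF5-NP differed from IL4 by 0.13 ± 0.36 (SE) for Kcnq1ot1 and by -0.79 ± 0.96 for Cd34 (n = 3 and 4). Neither sign was settled. Kcnq1ot1 was -0.82 with background subtracted and -0.11 without IRF5-NP 4, and 2 of its 3 IRF5-NP counts were below background. For Cd34, the mean of log2 CPM was 0.20 higher in IRF5-NP and the fitted difference was 0.54 without IL4 4. These contrasts share the IL4 libraries with each other. edgeR called 0% of genes in either of them, with 53 (IRF5-NP) and 84 (eGFP-NP) at an unadjusted p under 0.05. DESeq2 called 19 and 56.

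Fibroblast genes differed between libraries of the same group by a wide margin and are given beside the members, because fibroblasts can express Cd34. The mean of 7 fibroblast genes (Col1a2, Col3a1, Col12a1, Pdgfra, Pdgfrb, Cdh11 and Timp3) was 12.4 to 12.5 log2 CPM in MPLA. It was 10.5, 11.2, 4.19 and 9.49 in IL4 1 to 4, 4.00, 3.96 and 10.7 in IRF5-NP 1, 2 and 4, and 3.94, 11.3 and 11.3 in eGFP-NP 1-2, 3 and 4. The mean of the 12 macrophage markers was 9.57 to 9.65 log2 CPM in MPLA, below the fibroblast mean there. In IL4 the macrophage mean was 9.68 to 10.3. In bulk RNA, fewer cells of a type and less RNA per cell cannot be told apart. Of the 14 samples, 4 had a fibroblast mean of at most 4.19 (IL4 3, IRF5-NP 1 and 2, eGFP-NP 1-2). Among these 4, Cd34 spanned 5.08 to 9.90 log2 CPM, which holds both the lowest and the highest level of the series, and Kcnq1ot1 spanned 4.66 to 7.14. Within IL4, the fibroblast-poor library 3 had the lowest Cd34 level, while library 4 had the highest with a lower fibroblast mean than libraries 1 and 2. The part of fibroblast RNA in the spread of Cd34 within IL4 was not tested.

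**Figure D3:**
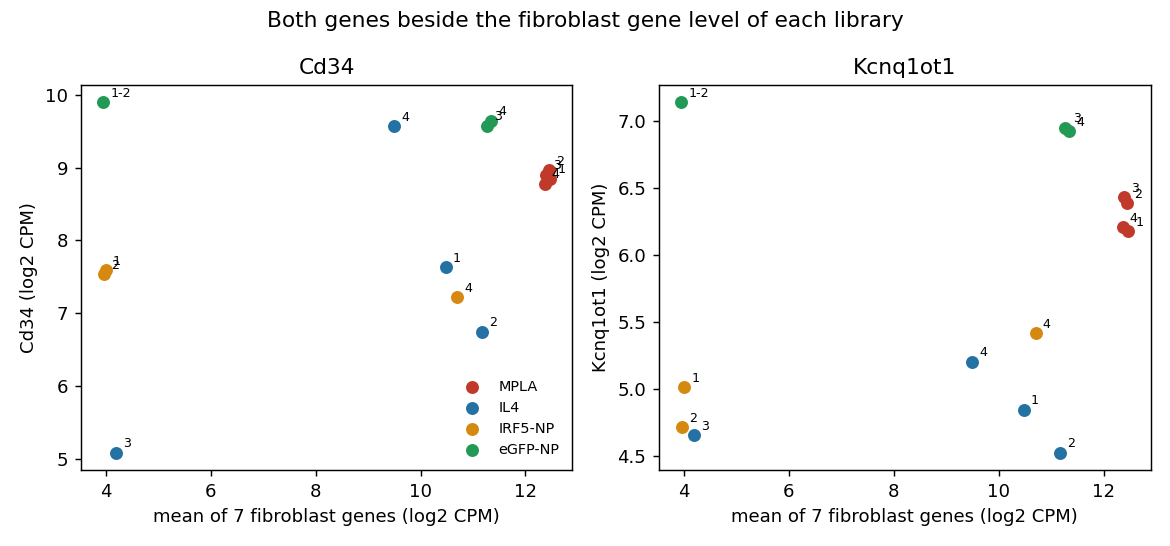
Log2 CPM of Cd34 (left) and Kcnq1ot1 (right) in 14 samples against the mean log2 CPM of 7 fibroblast genes, coloured by group and labelled with the replicate number. Cd34 reached 9.90 log2 CPM in the fibroblast-poor sample eGFP-NP 1-2 and 9.58 to 9.65 in the fibroblast-rich eGFP-NP 3 and 4.

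Genes of progenitors, mast cells and endothelium, which CD34 is also known to mark, were measured too. Of 10 progenitor and mast cell genes on the panel, 5 were above background in no library, among them the stem cell factor receptor Kit (5 to 19 counts) and the mast cell protease Cpa3 (4 to 23 counts). Gata2, a transcription factor of progenitors, mast cells and endothelium, was the member most often detected, in 12 of 15 libraries. It had 279 to 356 counts in MPLA, 46, 51, 19 and 205 in IL4 1 to 4, 21, 15 and 75 in IRF5-NP and 68, 66, 196 and 169 in eGFP-NP. Within IL4, Gata2 and Cd34 were both highest in library 4 and lowest in library 3, while within eGFP-NP Gata2 was lower and Cd34 higher in libraries 1 and 2 than in 3 and 4. Its difference between MPLA and IL4 was 1.64 ± 0.55 (SE, adjusted p = 0.0555 by edgeR). In that contrast 1 of the 10 genes was called, near the 14.2% of all genes called lower, namely Flt3 (-0.85 ± 0.27, adjusted p = 0.0488 by edgeR), a cytokine receptor above background in 1 of 15 libraries. That call was lost under housekeeping and total count scaling (adjusted p = 0.0651 and 0.164 by edgeR). Of 5 endothelial genes, Sele was above background in no library, and Cdh5 and Tek in 1 each. Flt1, a VEGF receptor also found on macrophages, was called lower in MPLA (4 to 16 counts against 244 to 770 in IL4), and Angpt2 had 26 to 224 counts over the series.

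Among selectins and their ligands, which share glycan-based adhesion with CD34, Selplg and Selp were called lower in MPLA than in IL4, against 14.2% of all genes. The log2 difference was -1.14 ± 0.27 (SE, adjusted p = 0.0199 by edgeR) for Selplg, the P-selectin ligand, and -1.07 ± 0.30 (SE, adjusted p = 0.0331 by edgeR) for Selp, P-selectin itself. Selp was above background in 6 of 15 libraries, and its call was lost under total count scaling (adjusted p = 0.108 by edgeR). In the 3 nanoparticle contrasts edgeR called 0% of all genes. The absence of calls among the progenitor, endothelial, selectin, imprinted, macrophage, fibroblast and housekeeping lists is therefore not particular to these lists. Between MPLA and IL4, the macrophage genes Cd14 and Adgre1 were called higher and Mrc1 lower, and 1 of 7 fibroblast genes (Col12a1) and 1 of 20 housekeeping genes (Tbp) were called higher, beside 12.2% of all genes. The calls of Adgre1 and Tbp were lost under housekeeping scaling (adjusted p = 0.0901 and 0.106 by edgeR).

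Of the imprinted genes around Kcnq1ot1, the panel held 2. Phlda2, a growth-restraining gene of the Kcnq1 domain, had 1 to 22 counts and was above background in 0 of 15 libraries, so it carried no measurable level beside Kcnq1ot1. Igf2, a fetal growth factor of the adjoining imprinted domain, had 186 to 320 counts in MPLA and 635, 103, 22 and 20 counts in IL4 1 to 4. It had 19 to 28 counts in IRF5-NP and 13, 10, 66 and 55 counts in eGFP-NP 1 to 4. Igf2 was therefore low in eGFP-NP 1 and 2, where Kcnq1ot1 was high (148 and 166 counts). Igf2 was not called between MPLA and IL4 (log2 difference -0.32 ± 1.05 SE, adjusted p = 0.855 by edgeR), and neither was Phlda2 (0.72 ± 0.27 SE, adjusted p = 0.0792 by edgeR).

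The pattern of each gene over the 14 samples was compared with those of 537 other genes that were above background in most libraries. Pearson's r between the 2 members was 0.81 (Spearman's rho 0.87), which placed Kcnq1ot1 6th among the genes most like Cd34 and Cd34 8th among those most like Kcnq1ot1. The 5 genes most like Cd34 were Ncor1 (r = 0.85), a nuclear receptor co-repressor, Golim4 (0.85), a Golgi membrane protein, Pggt1b (0.83), a protein prenyltransferase subunit, Hdac6 (0.83), a cytoplasmic deacetylase, and Sptbn1 (0.82), a spectrin of the membrane skeleton. Those most like Kcnq1ot1 were Tbp (0.91), the TATA-binding protein and a housekeeping gene of the panel, Runx2 (0.88), a transcription factor of bone, and again Hdac6 (0.88), Pggt1b (0.83) and Ncor1 (0.83). The lists thus shared 3 of 5 genes, 60% of each. These correlations are a description. The samples share treatments and near-identical pairs, and they include the nanoparticle libraries on which both members were chosen for the same direction, so the likeness of the members to each other is partly fixed by that choice.

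The levels of Tbp, the gene most like Kcnq1ot1, were 7.87 ± 0.03 (SD, n = 4) log2 CPM in MPLA, 7.24 ± 0.26 (SD, n = 4) in IL4, 7.48 ± 0.11 (SD, n = 3) in IRF5-NP and 7.96 ± 0.16 (SD, n = 3) in eGFP-NP. As for Kcnq1ot1, the means of eGFP-NP and MPLA lay above those of IRF5-NP and IL4. Between MPLA and IL4 the means differed by 0.63 log2 CPM for Tbp, 1.49 for Kcnq1ot1 and 1.62 for Cd34. Scaled to the 20 housekeeping genes of the panel in place of TMM, Cd34 was 8.09, 8.09 and 8.11 log2 units in IRF5-NP and 10.28, 9.91 and 9.91 in eGFP-NP. Kcnq1ot1 on that scale was 5.48, 5.24 and 6.28 in IRF5-NP, 7.51, 7.28 and 7.18 in eGFP-NP, 5.27 to 5.51 in IL4 and 6.58 to 6.86 in MPLA. The eGFP-NP libraries stayed above all other libraries for both genes on that scale, and the share of all genes for which this holds was not counted.

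**Figure D4:**
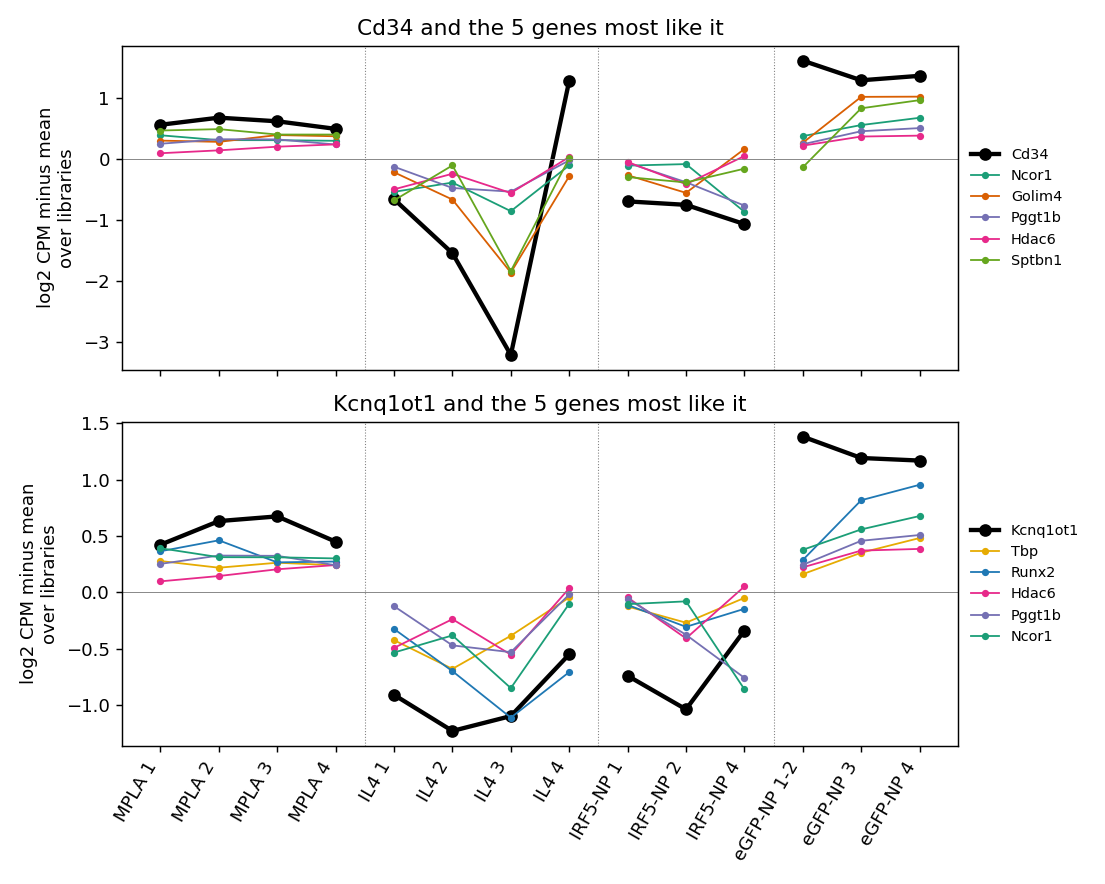
Log2 CPM minus the mean over 14 samples for Cd34 (top) and Kcnq1ot1 (bottom), in black, and for the 5 genes with the highest Pearson r to each, in colour; lines join samples of 1 group only to guide the eye, and replicates have no order. The coloured genes had r of 0.82 to 0.85 with Cd34 and 0.83 to 0.91 with Kcnq1ot1.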

How the data were processed

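nCounter counts of 15 BMDM samples were used, grouped and numbered by their labels. The authors deposited raw counts of 768 probes (754 genes, 6 positive and 8 negative controls). The methods name housekeeping normalization and log2 transformation, which these whole-number counts had not undergone. Cd34 and Kcnq1ot1, the gene lists and the tests were chosen with earlier results of these data known. Of 754 gene names, 744 matched a RefSeq symbol and 9 a synonym. Probe sequences and assay lanes were not used here. Some genes of the lists are not reported here.

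Groups were compared pairwise with edgeR 4.0.16 in R 4.3.3 (quasi-likelihood test, TMM scaling, no covariate, no filter), with Benjamini-Hochberg adjustment over all genes, two-sided, called at an adjusted p under 0.05. SE is the log2 difference over the square root of F. The script was tested on simulated data. Intervals are exact at 95% and cover counting error only. Likeness was Pearson's r of log2 CPM over genes above background in at least 0.5 of the libraries, with the 5 highest named. From the lists, genes called in a contrast were named, otherwise up to 4 of the most abundant. Aif1, Cd163, Mertk, Cdh5, Kit and Cpa3 were named after their values were seen. Alternatives were DESeq2 1.42.0, limma 3.58.1, other scalings, a filter, background subtraction, sample merging, covariates and left-out libraries.

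Replicate numbers were taken as pairing IRF5-NP with eGFP-NP. Same-numbered libraries deviated from their group means together (r = 0.823, 0.821 and 0.818 over genes), but libraries of unlike number were not compared. Numbers 1 and 2 rest on nearly identical libraries. These were fibroblast-poor in both groups, while number 4 was fibroblast-rich in both. The correlations therefore cannot show that equal numbers belong together. In contrasts with IL4 the correlations ranged from -0.816 to 0.318, and numbers were not taken as pairs. The replicate block was still fitted there as an alternative. It kept eGFP-NP 1 and 2 as separate samples wherever they entered.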

Additional observations from a re-analysis of the deposited data

How the results depend on the processing

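Between IRF5-NP and eGFP-NP, Cd34 and Kcnq1ot1 kept their negative sign under all 18 alternatives each. The genes were chosen on this contrast and its groups did not overlap, so the kept sign is no further support. Cd34 ranged from -2.43 (replicate block) to -1.93 (the methods' t-test and limma on housekeeping-scaled values), with -1.95 under housekeeping scaling and -2.41 to -2.14 leaving out each library. Kcnq1ot1 was -1.63 under housekeeping scaling, -1.65 under the methods' t-test and limma, and -3.67 with background subtracted, and lay between -2.22 (without IRF5-NP 4) and -1.72 leaving out each library. The replicate block gave -2.14. Housekeeping scaling moved the median of all genes from 0.10 to 0.39 in this contrast. Between MPLA and IL4 it moved from -0.05 to -0.33, and to 0.21 under total counts. There Kcnq1ot1 kept its call under 18 of 19 alternatives (adjusted p 1.42e-11 to 0.0722), the exception being merged pairs (1.53), and leaving out each library gave 1.42 to 1.68. Cd34 was -0.72 with the fibroblast covariate, 1.40 under the methods' t-test and limma, and 0.39 to 2.07 leaving out each library, the highest without IL4 4. The replicate block gave 1.67 (Cd34) and 1.56 (Kcnq1ot1) and changed neither call, although numbers were not taken as pairs there. Between IRF5-NP and IL4, Cd34 was 0.20 under the methods' t-test and limma and -1.17 to 0.54 leaving out each library (highest without IL4 4), and Kcnq1ot1 was -0.82 with background subtracted and -0.11 (without IRF5-NP 4) to 0.31 leaving out each library. Between eGFP-NP and IL4 both genes stayed positive under all 19 alternatives each. That is no further support either, since the eGFP-NP libraries were used to choose the genes. The causes were not tested. Called genes between MPLA and IL4 numbered 199, and 20 with merged pairs, 21 by the methods' t-test, 87 with the covariate, 95 with the block, 123 in a fit of all samples, 125 with background subtracted and 74 to 295 leaving out each library. With 0 calls in its own fit, IRF5-NP against IL4 had 19 by DESeq2 and 2 in the fit of all samples. The contrast of eGFP-NP with IL4 had 56 and 17, 6 with eGFP-NP 1 and 2 kept separate, 2 without IL4 2 or without eGFP-NP 1-2, and 1 by the methods' t-test or with merged pairs. For IRF5-NP against eGFP-NP the numbers were 6 by DESeq2, 16 with the covariate, 2 with those libraries separate and 1 in the fit of all samples. A prior count of 0.5 lowered the lowest log2 CPM of Cd34 from 5.08 to 5.03. Kcnq1ot1 counts below background limit the size of its differences.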
